A study of Mus musculus with 7 samples.

Results

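Scavenger receptors are a loose family of surface proteins on phagocytes and endothelial cells, and the 9 genes described here are Cd36, Scarb1, Marco, Msr1, Olr1, Scarf1, Stab1, Cd163 and Lrp1. They were found by symbol in the platform annotation of the array, and all 9 had 1 probe set each among the 25428 probe sets of the deposited table. Expression was read on 7 arrays of conventional type 1 dendritic cells (cDC1) sorted from the lungs of C57/BL6 mice. KP(l), for late tumors, comprises 3 arrays from mice given 100000 cells of KP, a mouse lung tumor cell line, into the tail vein, with the lungs taken at day 28. The control group, nLung, comprises 4 arrays from mice without tumors, labelled as healthy, which per the methods had been injected with PBS. Each array held RNA from a pool of 2 to 3 mice, so the spread between arrays is a spread between pools, and the tumors came from a transplanted line rather than from the animals' own cells. The ages of the mice were not given in the sources used here.

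Scavenger receptors bind polyanionic and lipid ligands such as modified lipoproteins, apoptotic cells, bacterial surfaces and heat shock proteins, and most deliver what they bind to endosomes. They are grouped in classes by the shape of the protein rather than by descent, so members of different classes can share a ligand without sharing a sequence. In the lung the best known of them is MARCO, which lets alveolar macrophages clear inhaled particles and bacteria, whereas cDC1 are known for engulfing dying cells and presenting their antigens to CD8 T cells. The question addressed is whether the mRNA of these receptors differed between cDC1 from tumor-bearing lungs and cDC1 from control lungs.

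The sorted cells carried the markers of their label. All 14 cDC1 markers on the list, among them Clec9a, Xcr1, Batf3 and Irf8, had a mean above the 92nd percentile of all probe sets. Their summed level, on the linear scale (2 to the power of the deposited log2 value), was 12486 to 15467 in KP(l) arrays and 12963 to 15382 in nLung arrays. The lowest sum was that of KP(l) replicate 1 and the highest that of KP(l) replicate 3. At an unadjusted limma p under 0.05, 1 of the 14 was higher in KP(l) (Itgae), against 2.62% of all probe sets. The same number, 1, was lower (Clec9a), against 2.24%. Markers of other cells were uneven. The summed level of 10 alveolar macrophage markers was 1352, 956 and 95.6 in KP(l) replicates 1, 2 and 3, and 1201, 272, 93.8 and 199 in nLung replicates 1, 2, 3 and 4. For 15 markers of interstitial and tumor macrophages it was 1967, 906 and 308 in KP(l), against 387, 329, 292 and 321 in nLung. KP(l) replicate 1 also stood apart in 10 neutrophil markers, with a summed level of 1601 against 69.5 to 89.6 in the other arrays. That sum was mostly S100a8 (834) and S100a9 (655), while Ly6g was at 9.43, Ngp at 5.87 and Camp at 4.42. KP(l) replicate 1 was also the highest array for T and NK cell markers (290 against 67.4 to 115), mostly from Cd8b1 (218). In that array Cd3d was at 8.73, Cd3e at 7.69, Cd3g at 4.33 and Trac at 5.30. It was the highest array for B cell markers as well (86.4 against 35.3 to 43.0). For 10 epithelial and tumor cell markers it was nLung replicate 1 that stood apart, at 2549 against 270 to 803 in the other arrays. That sum was mostly Scgb1a1 (1619) and Sftpc (661). The upper quartile of all values further divided the arrays. On the log2 scale it was 5.11 to 5.17 in replicates 1 and 2 of both groups. In the other 3 arrays it was 5.22 to 5.28. Differences are therefore also given within each of these sets. The other 3 arrays are KP(l) replicate 3 and nLung replicates 3 and 4, so differences within that set rest on KP(l) replicate 3 alone.

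Sequences just upstream of 3 members are shown because these 3 genes stand for the patterns described below. Cd36 had the highest mean of the 9 probe sets, while Marco and Olr1 ran through the arrays in much the same order. Each is the 250 bases before a RefSeq transcript start in GRCm38.p6, all on the minus strand, and 6 of the 9 members had such a window. Capitals mark matches to 3 motifs on either strand. These were GAGGAA, a core that PU.1 and other ETS factors can bind, AGGTCA, the half-site of nuclear receptors, and TGANTCA, the site of AP-1.
Cd36, chr5:17835897-17836146: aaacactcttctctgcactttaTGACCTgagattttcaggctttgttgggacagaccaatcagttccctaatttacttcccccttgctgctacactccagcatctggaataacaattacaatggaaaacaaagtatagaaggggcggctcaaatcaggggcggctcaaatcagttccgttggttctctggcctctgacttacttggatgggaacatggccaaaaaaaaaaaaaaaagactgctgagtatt
Marco, chr1:120505025-120505274: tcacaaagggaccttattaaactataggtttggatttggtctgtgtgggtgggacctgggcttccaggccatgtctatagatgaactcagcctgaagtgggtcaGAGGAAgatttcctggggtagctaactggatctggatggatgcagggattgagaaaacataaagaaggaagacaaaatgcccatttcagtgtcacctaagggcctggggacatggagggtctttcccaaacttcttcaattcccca
Olr1, chr6:129507166-129507415: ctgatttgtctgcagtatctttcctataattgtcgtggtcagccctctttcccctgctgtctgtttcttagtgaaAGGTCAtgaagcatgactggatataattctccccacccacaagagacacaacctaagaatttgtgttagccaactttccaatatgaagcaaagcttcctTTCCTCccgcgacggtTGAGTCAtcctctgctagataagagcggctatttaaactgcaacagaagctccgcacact
The Marco window held 1 match to GAGGAA, 146 bases before the start. The Cd36 window held 1 match to AGGTCA, on the opposite strand, 228 bases before the start. The Olr1 window held 1 match each to GAGGAA and AGGTCA and 1 AP-1 site that matches on both strands, and none of the matches overlapped. Over all 32851 windows in the table, 23.3% held GAGGAA, 14% held AGGTCA and 6.75% held TGANTCA. The RefSeq starts used for Cd36 and Olr1 are not the outermost starts of those genes. Stab1 also held 1 GAGGAA, and the windows of Cd163 and Lrp1 held none of the 3 motifs. A match is a description of the letters and not a binding site.

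None of the 9 genes was called different between KP(l) and nLung. The call, an adjusted p of 0.05 or less in limma with a fold change of 2 or more, was met by 0 of 9 members, and by 0% of all 25428 probe sets. The smallest adjusted p over the whole table was 0.502 in the limma fit, and over the members it was 0.912. An unadjusted p under 0.05 was found for 0 members and for 4.86% of all probe sets. The KP(l) and nLung values overlapped for every member, whereas 3.84% of all probe sets did not overlap. Only Msr1 reached a 2-fold change, 1 of 9, against 1.84% of all probe sets. By their log2 fold changes, 5 members lay above 0 and 4 below, with a median of 0.018, beside a median of 0.019 over all probe sets. With the simulated arrays described in the processing, 16.4% of changes of 1 on the log2 scale and 65.2% of changes of 2 were called. A missed call therefore does not show that a gene was alike in both groups. These shares are for probe sets above the median mean, with many changes added in each run. A lone change may be called less often.

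**Figure D1:**
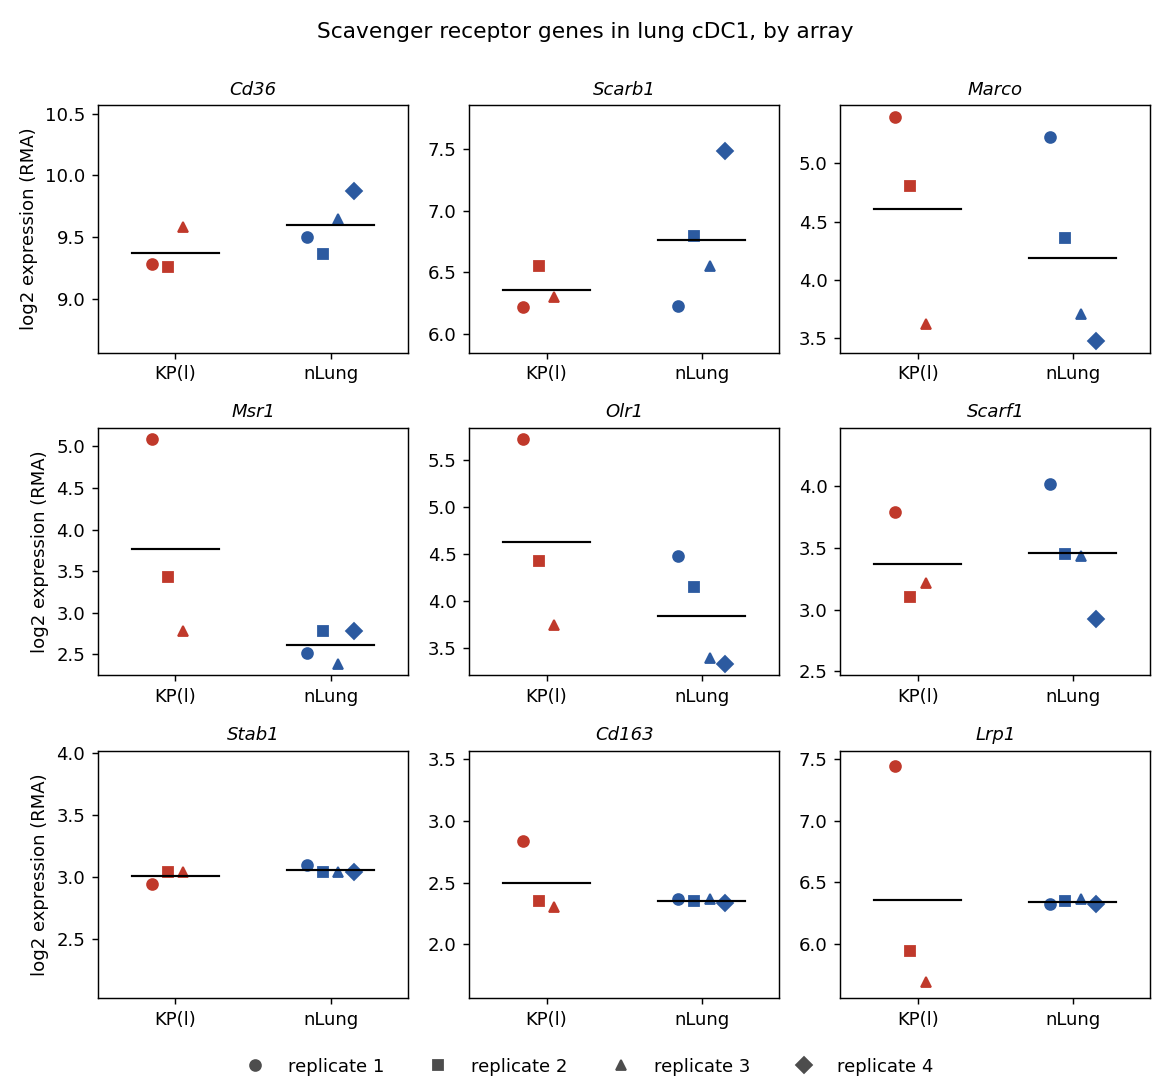
Deposited log2 expression of the 9 scavenger receptor genes in each array, KP(l) left and nLung right, with 1 symbol per replicate number and a line at the group mean. All 9 panels overlap between groups, and KP(l) replicate 1 is the highest array for Marco, Msr1, Olr1, Cd163 and Lrp1. Each panel has its own log2 range.

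Cd36, a class B receptor for oxidised lipoproteins, long-chain fatty acids and dying cells, had the strongest signal of the 9 probe sets. Its linear level was 623, 614 and 765 in the KP(l) arrays and 725, 659, 803 and 936 in the nLung arrays. KP(l) averaged 667 ± 84.8 (SD, n = 3) and nLung 781 ± 119 (SD, n = 4), and the probe set's mean lay at the 98.9th percentile of all probe sets, as a rank of probe signal rather than of transcript number. All 3 KP(l) arrays lay below the nLung mean, but KP(l) replicate 3 lay above nLung replicates 1 and 2, so the groups overlapped. The log2 fold change was -0.22 (SE 0.15, 95% interval -0.58 to 0.14), with an adjusted p of 0.912 in limma and an exact permutation p of 0.171, two-sided over 35 splits of the arrays. Within the sets the difference was -0.16 in replicates 1 and 2 and -0.18 in the other arrays, which hold only replicate 3 of KP(l). No halving or doubling of Cd36 lies inside its interval. Its standard error was the third smallest, after those of Stab1 and Cd163.

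Scarb1 encodes the other class B receptor, which takes up cholesteryl esters from high density lipoprotein and can bind phosphatidylserine. Its linear level was 74.6, 93.9 and 78.8 in KP(l), against 74.9, 111, 93.9 and 178 in nLung. The KP(l) arrays lay within a narrow band and below the nLung mean, and the nLung spread came chiefly from replicate 4. KP(l) averaged 82.5 ± 10.1 and nLung 115 ± 45.1 (SD, n = 3 and n = 4). The log2 fold change was -0.40 (SE 0.29, 95% interval -1.10 to 0.29), with an unadjusted limma p of 0.208, an adjusted p of 0.912 and an exact permutation p of 0.314. Without nLung replicate 4 it was -0.17. Within the sets it was -0.12 in replicates 1 and 2 and -0.72 in the other arrays, the set that includes nLung replicate 4.

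Marco, a class A receptor with a collagen-like stalk, is a defining gene of alveolar macrophages. Its linear level was 42.2, 27.9 and 12.3 in KP(l), against 37.4, 20.5, 13.1 and 11.1 in nLung. Replicates 1 and 2 were the high arrays in both groups and the groups covered nearly the same range, 3.8-fold from the highest to the lowest array. KP(l) averaged 27.5 ± 15.0 and nLung 20.5 ± 11.9 (SD, n = 3 and n = 4), a log2 fold change of 0.42 (SE 0.56, 95% interval -0.91 to 1.75) with an adjusted limma p of 0.931 and an exact permutation p of 0.486. Within the sets it came to 0.31 in replicates 1 and 2 and to 0.030 in the other arrays.

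The arrays that were high for Marco were those with the highest alveolar macrophage signal. The 4 highest arrays of both were, in order, KP(l) replicate 1, nLung replicate 1, KP(l) replicate 2 and nLung replicate 2. Among the markers, Chil3, a chitinase-like protein of alveolar macrophages, was at 525, 578 and 8.64 in KP(l), against 576, 132, 11.7 and 97.3 in nLung. Atp6v0d2, a proton pump subunit, was at 352, 73.9 and 8.73 in KP(l), against 209, 21.7, 7.16 and 7.40 in nLung. Siglecf, whose protein was used to gate these macrophages out, was at 107, 15.8 and 21.1 in KP(l), against 15.1, 26.8, 21.1 and 21.1 in nLung, so it was high in KP(l) replicate 1 alone. Of the 10 markers, 8 had a log2 fold change above 0, 1 had an unadjusted p under 0.05, and 0 were called. With the mean of these markers in the fit, the Marco difference became -0.055. Their part in the Marco values was otherwise not tested, and in sorted bulk samples fewer cells of a type and less RNA per cell cannot be told apart.

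Msr1, the other class A member and the macrophage receptor for acetylated lipoprotein, had the largest fold change and the smallest p of the 9 genes. Its linear level was 33.9, 10.8 and 6.87 in KP(l), against 5.70, 6.87, 5.21 and 6.89 in nLung. A single array, KP(l) replicate 1, was 3.14-fold above the next one, while KP(l) replicate 3 lay inside the narrow nLung range. KP(l) averaged 17.2 ± 14.6 and nLung 6.17 ± 0.849 (SD, n = 3 and n = 4). The log2 fold change was 1.15 (SE 0.51, 95% interval -0.07 to 2.38), a 2.22-fold difference of the log2 means, with an unadjusted limma p of 0.0616, an adjusted p of 0.912 and an exact permutation p of 0.0857. Without KP(l) replicate 1 the log2 fold change was 0.49, and without KP(l) replicate 3 it was 1.64. Within the sets it was 1.61 in replicates 1 and 2 and 0.20 in the other arrays. The mean of the probe set was at the 39.3rd percentile, below the middle of the table.

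The order of the Msr1 arrays began as that of the interstitial and tumor macrophage markers did, with KP(l) replicate 1 first and KP(l) replicate 2 second. Gpnmb, a glycoprotein of lipid-laden and tumor macrophages, was at 611, 168 and 23.6 in KP(l), against 30.3, 7.05, 9.05 and 9.51 in nLung. Trem2, a lipid-sensing receptor of such macrophages, was at 164, 51.9 and 17.5 in KP(l), against 16.6, 19.7, 19.9 and 21.5 in nLung. Mmp12, a macrophage elastase, stands on the list of type 2 and monocyte-derived dendritic cell markers, of which 5 lay above 0 and 5 below. It was at 1004, 174 and 67.0 in KP(l), against 39.0, 22.6, 21.0 and 15.4 in nLung. Both Trem2 and Msr1 had KP(l) replicate 3 inside the nLung range, whereas for Mmp12 all 3 KP(l) arrays lay above all 4 nLung arrays. Of the 15 interstitial and tumor macrophage markers, 14 had a log2 fold change above 0, 4 had an unadjusted p under 0.05 and 0 were called. With the mean of these markers in the fit, a covariate added after seeing the data, the Msr1 log2 fold change became 0.15. With the mean of the alveolar macrophage markers instead, the planned covariate, it was 0.85 (SE 0.44). The markers given by name for both kinds of macrophage, and Mmp12, were chosen after their values were seen. Their part in the Msr1 values was otherwise not tested.

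Olr1, the class E lectin-like receptor for oxidised lipoprotein first described on endothelium, resembled Marco. Its linear level was 52.6, 21.5 and 13.4 in KP(l), against 22.4, 17.7, 10.5 and 10.05 in nLung. KP(l) replicate 1 was 2.35-fold above the next array, and the other KP(l) arrays lay inside the nLung range. KP(l) averaged 29.2 ± 20.7 and nLung 15.2 ± 5.95 (SD, n = 3 and n = 4), with a log2 fold change of 0.79 (SE 0.52, 95% interval -0.44 to 2.02), an unadjusted limma p of 0.172, an adjusted p of 0.912 and an exact permutation p of 0.229. Without KP(l) replicate 1 it was 0.24. Within the sets it was 0.76 in replicates 1 and 2 and 0.38 in the other arrays. The 4 highest arrays were the 4 of Marco in the same order. With the mean of the alveolar macrophage markers in the fit, the Olr1 log2 fold change was 0.37 (SE 0.25). Endothelial markers, 12 in number, had a summed level of 117 to 123 in KP(l) and 118 to 140 in nLung, with nLung replicate 1 the highest array and KP(l) replicate 2 the lowest.

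**Figure D2:**
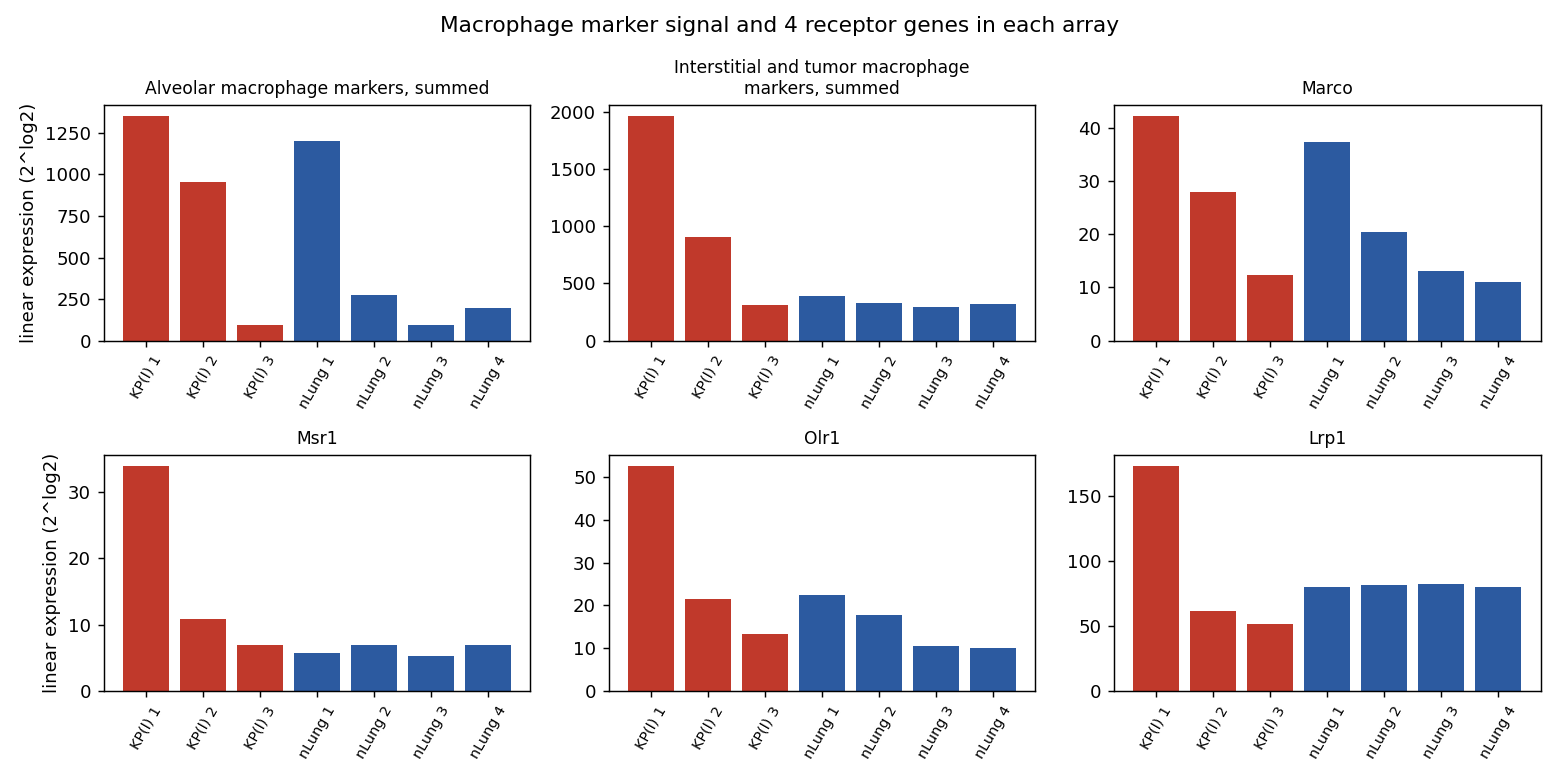
Linear expression (2 to the power of the deposited log2 value) in each array, KP(l) in red left of nLung in blue, for the summed alveolar macrophage markers, the summed interstitial and tumor macrophage markers, Marco, Msr1, Olr1 and Lrp1. Bars start at 0. KP(l) replicate 1 is the tallest bar in all 6 panels, and the alveolar macrophage markers, Marco and Olr1 share their 4 tallest bars in the same order.

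Lrp1, a large endocytic receptor of the LDL receptor family that takes up alpha-2-macroglobulin complexes and binds calreticulin on dying cells, was steady in one group and scattered in the other. Its linear level was 173, 61.6 and 51.7 in KP(l), against 80.1, 81.6, 82.3 and 80.1 in nLung. The nLung arrays lay within 0.040 on the log2 scale of one another, whereas the KP(l) arrays spanned 1.75. KP(l) replicate 1 lay above all 4 nLung arrays and KP(l) replicates 2 and 3 below all of them. The values of nLung replicates 1 and 4 were identical, so the narrow nLung range need not be the spread between pools. KP(l) averaged 95.6 ± 67.6 and nLung 81.0 ± 1.12 (SD, n = 3 and n = 4). The log2 fold change was 0.018 (SE 0.40, 95% interval -0.94 to 0.98), with an unadjusted limma p of 0.965, an adjusted p of 0.999 and an exact permutation p of 0.943. No KP(l) array lay near the KP(l) mean. Without KP(l) replicate 1 the log2 fold change was -0.52 (SE 0.10), with an unadjusted limma p of 0.00254 and an adjusted p of 0.769. The SE and p of that fit rest in part on the narrow nLung range. Within the sets it was 0.36 in replicates 1 and 2 and -0.65 in the other arrays. With the mean of the interstitial and tumor macrophage markers in the fit it was -0.74, with an adjusted limma p of 1. Macrophages express Lrp1 strongly, and KP(l) replicate 1 also had the highest summed macrophage and neutrophil markers, the neutrophil sum mostly from S100a8 and S100a9. The part of these markers in the Lrp1 values was not tested beyond that fit.

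The remaining 3 genes had weak signals. Scarf1, a class F receptor that binds complement C1q on dying cells, was at 13.8, 8.60 and 9.29 in KP(l), against 16.2, 11.0, 10.8 and 7.57 in nLung. Its highest arrays were replicate 1 of each group, and the log2 fold change was -0.088 (SE 0.28, 95% interval -0.77 to 0.59, exact permutation p 0.771). Stab1, a class H receptor of sinusoidal endothelium and some macrophages, was at 7.70, 8.24 and 8.24 in KP(l), against 8.54, 8.24, 8.24 and 8.24 in nLung. With only 3 distinct values over 7 arrays, its values say little about variation between pools. The log2 fold change of Stab1 was -0.045 (SE 0.073, 95% interval -0.22 to 0.13, exact permutation p 0.286). Cd163, the class I receptor for haptoglobin-bound hemoglobin on tissue macrophages, was at 7.13, 5.10 and 4.92 in KP(l), against 5.15, 5.10, 5.15 and 5.05 in nLung. It was again KP(l) replicate 1 that lay apart, with a log2 fold change of 0.14 (SE 0.14, 95% interval -0.20 to 0.48, exact permutation p 0.543). Means were at the 47.3rd, 37.5th and 20.2nd percentile for Scarf1, Stab1 and Cd163, and the median linear level of an array lay between 11.2 and 11.9.

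**Figure D3:**
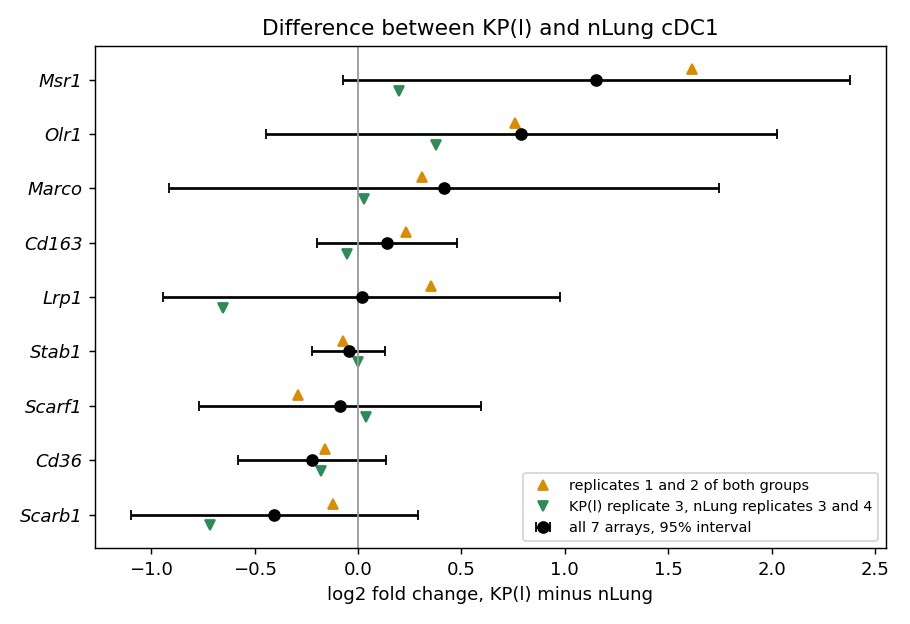
Log2 fold change of KP(l) minus nLung for the 9 genes, with the 95% interval over all 7 arrays (black) and the differences within replicates 1 and 2 (orange) and within the other 3 arrays (green). Every interval contains 0, and for Lrp1 the values of the sets lie on opposite sides, at 0.36 and -0.65.

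Among themselves, the members differed more in spread than in group means. KP(l) replicate 1 was the highest of the 7 arrays for 5 of 9 members, as it was for 19.3% of all probe sets. The log2 range was wider over the 3 KP(l) arrays than over the 4 nLung arrays for 6 of 9 members, against 39% of all probe sets. Lrp1, Msr1 and Cd163 were the clearest of these, with KP(l) ranges of 1.75, 2.30 and 0.53 and nLung ranges of 0.040, 0.40 and 0.028 on the log2 scale. For Lrp1 and Cd163 some nLung values were identical, with 6 and 5 distinct values over the 7 arrays. Their nLung ranges need not measure the spread between pools. Cd36, Scarb1 and Scarf1 were the members with the wider range in nLung. Marco and Olr1, which both varied widely, had a root mean square difference of centred log2 values of 0.32 over the 7 arrays, against 0.72 between Marco and Msr1, the other class A member, and Cd36 and Scarb1 had one of 0.33. The difference was smaller for some pairs with a member of narrow range, the smallest being 0.19 between Cd36 and Stab1, since this measure grows with a gene's own range. These are descriptions over arrays that share the same sort, and no test was made of them.

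**Figure D4:**
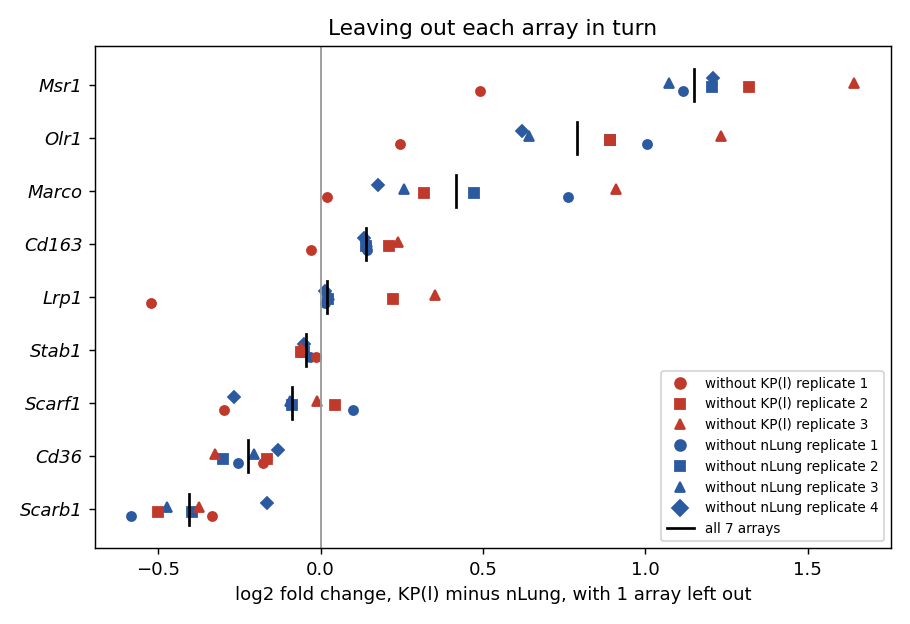
Log2 fold change of KP(l) minus nLung for each of the 9 genes with 1 array left out at a time. Red symbols are left-out KP(l) arrays, blue symbols left-out nLung arrays and the black line is the value over all 7 arrays. Leaving out KP(l) replicate 1 moves Lrp1 to -0.52, Msr1 to 0.49 and Olr1 to 0.24, while Cd36 stays between -0.32 and -0.13.

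The genes whose values followed those of 2 members most closely were looked for among 12301 named probe sets with a mean above the median. For Cd36 these were Irf2bp1, Iqgap1 and Haus2, with root mean square differences of 0.054, 0.074 and 0.079 on the centred log2 scale over 7 arrays. For Msr1 they were Igf1, Tarm1 and Fosl2, at 0.19, 0.20 and 0.23. Msr1 itself ranged over 2.70 on the log2 scale and Cd36 over 0.61, so these differences are not set against each other.

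Other receptors, ligands and handling genes of the pathway were taken from 10 lists with 102 measured genes. None was called. At an unadjusted p under 0.05, 6 of 102 were higher in KP(l), against 2.62% of all probe sets, and 3 were lower, against 2.24%. The groups did not overlap for 3 of 102, all higher in KP(l), against 2.12% of all probe sets. The median log2 fold change over the 102 genes was 0.054.

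Among other receptors, Lamp1, a glycoprotein of the lysosomal membrane related to the class D receptor Cd68, was at 381, 381 and 270 in KP(l), against 88.9, 212, 153 and 238 in nLung. All 3 KP(l) arrays lay above the 4 nLung arrays, with a log2 fold change of 1.07 (SE 0.35), an unadjusted limma p of 0.0207, an adjusted p of 0.912 and an exact permutation p of 0.0571. It was the only 1 of the 4 other class B and lysosomal genes with an unadjusted p under 0.05. Cd44, the hyaluronan receptor, was at 114, 58.9 and 94.5 in KP(l), against 111, 143, 195 and 188 in nLung, with a log2 fold change of -0.85 (SE 0.29), an unadjusted limma p of 0.0238 and an adjusted p of 0.912. KP(l) replicate 1 lay just above the lowest nLung array, so the Cd44 groups overlapped. It was 1 of 2 class J and K genes. Cxcl16, a transmembrane chemokine that also binds phosphatidylserine and oxidised lipoprotein, averaged 1566 ± 321 in KP(l) and 1543 ± 80.9 in nLung (SD, n = 3 and n = 4), a log2 fold change of 0.0016 with an adjusted limma p of 1. The 3 other class A genes had a median log2 fold change of 0.16, with Scara3, the one with the highest mean log2 value, at 0.16. Colec12, a collectin of the same class that was chosen after its values were seen, was at 46.5, 12.4 and 8.34 in KP(l), against 8.71, 6.57, 7.86 and 7.79 in nLung, with a log2 fold change of 1.13 (SE 0.56), an unadjusted limma p of 0.0829 and an adjusted p of 0.912. As with Msr1, KP(l) replicate 1 was high and replicate 3 lay inside the nLung range. The 6 SRCR family and class H genes had a median of 0.017 with Ssc5d at -0.10, and the 6 class E, F and G genes a median of 0.090. None of these 15 genes had an unadjusted p under 0.05.

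Among 12 further genes of the LDL receptor family, 9 lay above 0 and 3 below, with a median of 0.055, and none had an unadjusted p under 0.05. Lrp10, the most strongly detected of them, differed by 0.16 (SE 0.17). Co-receptors, adaptors and kinases that act with the scavenger receptors, 20 genes, had a median of -0.12, with 7 above 0 and 13 below. Tlr2, which cooperates with CD36 in the response to bacterial lipopeptides, was at 82.5, 72.4 and 46.7 in KP(l), against 98.8, 81.9, 126 and 87.4 in nLung. Its log2 fold change was -0.57 (SE 0.24), with an unadjusted limma p of 0.0494, an adjusted p of 0.912 and an exact permutation p of 0.0857, and KP(l) replicate 1 lay inside the nLung range.

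Soluble ligands and opsonins, which link receptors to their cargo, had a median of 0.19 over 18 genes, 13 of them above 0. Apoe, the apolipoprotein recognised by LRP1, was at 284, 218 and 60.4 in KP(l), against 78.8, 52.5, 30.9 and 44.2 in nLung, a log2 fold change of 1.67 (SE 0.58) with an unadjusted limma p of 0.0253, an adjusted p of 0.912 and an exact permutation p of 0.0571. Mfge8, which bridges phosphatidylserine to integrins, was at 634, 243 and 132 in KP(l), against 55.8, 160, 49.8 and 107 in nLung, a log2 fold change of 1.72 (SE 0.63) with an unadjusted limma p of 0.0316 and an adjusted p of 0.912. C1qb, a chain of the opsonin C1q that SCARF1 binds, was chosen after its values were seen. It was at 277, 128 and 22.8 in KP(l), against 34.4, 19.8, 19.1 and 25.5 in nLung (unadjusted limma p 0.0468, adjusted p 0.912). The other C1q chains, C1qa and C1qc, had an unadjusted limma p of 0.0814 and 0.337. For Apoe, Mfge8 and C1qb, KP(l) replicates 1 and 2 lay above all nLung arrays and replicate 3 inside their range. Apoe and C1qb are also on the interstitial and tumor macrophage list, and these 2 are the arrays with the highest signal of that list. Anxa1, a phosphatidylserine-binding annexin, ran the other way at 772, 593 and 617 in KP(l), against 774, 772, 1064 and 925 in nLung, with a log2 fold change of -0.42 (SE 0.16), an unadjusted limma p of 0.0358 and an adjusted p of 0.912.

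Genes for the handling of lipid, heme and iron cargo had a median of 0.46 over 16 genes, 12 of them above 0. The median was 0.53 within replicates 1 and 2 and -0.088 within the other arrays. Fabp4, a fatty acid carrier of alveolar macrophages that was chosen after its values were seen, was at 217, 302 and 4.33 in KP(l), against 59.1, 6.25, 4.23 and 5.09 in nLung. Ftl1, the ferritin light chain, was the only one with an unadjusted p under 0.05 (0.0216 in limma, adjusted p 0.912), at 8.53, 5.92 and 3.26 in KP(l), against 3.73, 2.26, 2.27 and 2.64 in nLung, a weak signal at the 6.99th percentile. Abca1, a cholesterol exporter likewise chosen after its values were seen, was the one gene of the list whose groups did not overlap, at 12.7, 8.80 and 8.36 in KP(l), against 8.19, 8.20, 7.97 and 6.85 in nLung. Its exact permutation p of 0.0286 is the smallest that 35 splits can give. In limma its log2 fold change was 0.33 (SE 0.17), with an unadjusted p of 0.0907 and an adjusted p of 0.912. The mean of Abca1 lay at the 39.1st percentile, a weak signal.

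Of 15 transcription factor genes known to act on scavenger receptor genes, 6 lay above 0 and 9 did not, with a median of -0.023. Ppard, a lipid-activated nuclear receptor, was at 28.4, 44.0 and 25.4 in KP(l), against 19.1, 15.1, 21.4 and 23.7 in nLung. All 3 KP(l) arrays lay above the nLung arrays, with a log2 fold change of 0.70 (SE 0.24), an unadjusted limma p of 0.0229, an adjusted p of 0.912 and an exact permutation p of 0.0286. Within the sets the Ppard difference was 1.06 in replicates 1 and 2 and 0.17 in the other arrays. Pparg, a nuclear receptor that drives Cd36 in macrophages, was chosen after its values were seen. It was at 46.7, 15.6 and 9.57 in KP(l), against 11.9, 8.25, 6.79 and 6.77 in nLung (unadjusted limma p 0.0573, adjusted p 0.912). Cd36 was at its lowest in KP(l) replicates 1 and 2, the arrays with the highest interstitial and tumor macrophage signal. A link of Pparg to Cd36 was not tested.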

How the data were processed

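The authors deposited log2 expression values of 7 Mouse Gene 2.0 ST arrays, made by RMA (background correction, quantile normalization, median polish) in the affy package with a BrainArray Entrez gene definition. The labels name amplification by a NuGEN protocol and the methods the Affymetrix 3'IVT protocol. After CD11c bead enrichment, the sort took SiglecF-negative, CD11b-negative cells high in MHC class II, with CD103 and CD11c also stained. No probe set was left out. RMA brings the probe values of all arrays to 1 distribution, so a change shared by most genes cannot be seen. The deposited gene values still differed in upper quartile, from 5.11 to 5.28. Weak probe sets keep a background level, which understates their fold changes. Tied values occurred in weak probe sets and also in stronger ones, such as Lrp10, at 168 in nLung replicates 3 and 4.

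The groups were fitted with lmFit and eBayes of limma 3.58.1 under R 4.3.3, over all 25428 probe sets and with Benjamini-Hochberg adjustment. Exact permutation tests were two-sided over 35 splits, with a smallest p of 0.0286. The platform table named 24705 probe sets. Of 108 pathway genes listed, 102 were measured. All members were named. From each pathway list up to 3 genes with the smallest unadjusted p under 0.05 were named, or otherwise the one with the highest mean, and nearest patterns were given for the member with the highest mean and the one with the smallest p. The members and lists were chosen with earlier results of these data known. Alternatives were an eBayes intensity trend, array weights, a repeated quantile normalization, median centring, a filter on low means, left-out arrays, the replicate block, SAM (the study's test, written anew), linear means, other fold thresholds, the sets of arrays and a marker covariate. The interstitial and tumor macrophage covariate and the joint removal of both replicates 1 were added after seeing the data. On simulated arrays limma called 16.4%, 50%, 65.2% and 82.4% of log2 changes of 1, 1.5, 2 and 3, with at most 5 false calls in each of 5 runs. Noise was drawn as normal and independent, and changes were added only to probe sets above the median mean. Many changes were added together in each run, which eases the Benjamini-Hochberg adjustment, so a lone change may be called less often. A call also needed a 2-fold change, so a log2 change of 1 sat at the threshold itself. The number of arrays limits the precision. Promoter windows are from RefSeq, and figures were drawn with matplotlib 3.10.9.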

Additional observations from a re-analysis of the deposited data

Results flagged for a closer look

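Without tied values, chance alone would set about 1 in 20 groups apart. Of 21 groups of 4 arrays examined, 3 had an array set apart. Each is a nLung array far from the other 3, by the gap to its nearest neighbour over the range of the group on the log2 scale. For Stab1 this ratio was 1, with nLung replicate 1 at 8.54 and the others all at 8.24 on the linear scale, a difference of little size. For Scara3 it was 1, with nLung replicate 4 at 8.01 and the others all at 11.2. For Stab1 and Scara3 the ties among the others fix the ratio at 1, so the chance rate does not apply to them. For Lrp10 it was 0.887, with nLung replicate 1 at 113 and the others between 168 and 177, while the KP(l) arrays were at 168, 182 and 168.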

How the results depend on the processing

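No member was called under any of 21 alternatives, nor was any probe set of the table. SAM, the test named in the methods, was written anew and samr itself was not run. The lowest false discovery rate of this version was 16.5%, and calls by samr may differ. The median log2 fold change of the members was 0.018 over all arrays and 0.23 within replicates 1 and 2, it was -0.18 with the interstitial and tumor macrophage covariate, and leaving out 1 array gave -0.030 to 0.24. An unadjusted p under 0.05 was reached by 1 member without KP(l) replicate 1 and in both fits added after seeing the data (Lrp1), and without KP(l) replicate 3 and with SAM (Msr1, SAM p 0.0398). Cd36, Scarb1 and Msr1 kept their direction in all alternatives run. Marco turned to -0.055 with the alveolar macrophage covariate and -0.51 with the interstitial and tumor macrophage covariate. Olr1 turned to -0.18 with the interstitial and tumor macrophage covariate but was 0.37 with the alveolar macrophage covariate. Scarf1 turned to 0.045 without KP(l) replicate 2 and 0.037 within the other arrays, and leaving out 1 array gave -0.30 to 0.10 (highest without nLung replicate 1). Cd163, at -0.030 to 0.24 with 1 array left out (lowest without KP(l) replicate 1), turned to -0.026 without both replicates 1, -0.092 with the interstitial and tumor macrophage covariate and -0.052 within the other arrays. Lrp1, at -0.52 to 0.35 with 1 array left out (lowest without KP(l) replicate 1), turned to -0.14 with array weights, -0.53 without both replicates 1, -0.048 with the sets as a block, -0.20 and -0.74 with the alveolar and the interstitial and tumor macrophage covariate, and -0.65 within the other arrays. The causes were not tested. Msr1, Scarf1, Stab1 and Cd163 fell below the filter on low means.

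The labels do not state that the replicate numbers pair pools. Deviations of same-numbered arrays correlated at 0.08, 0.02 and 0.19 across probe sets, and nLung replicate 4 has no partner. Those of differently numbered arrays correlated at -0.12 to 0.12. For KP(l) replicates 1 and 2 a differently numbered nLung array correlated more than the same-numbered array, at 0.09 and 0.04. With the replicate block 0 members and 0 probe sets were called, and the median log2 fold change of the members was 0.013.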

Other observations

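Outside the scavenger receptors and their pathway, markers of other dendritic cells also varied. Cd209a, a lectin of monocyte-derived dendritic cells, was at 16.0, 8.61 and 21.4 in KP(l), against 46.7, 95.5, 49.2 and 91.5 in nLung, a log2 fold change of -2.22 (SE 0.41) with an unadjusted limma p of 0.00112 and an adjusted p of 0.752. Mgl2 and Clec10a, lectins of type 2 dendritic cells and macrophages, differed by 1.38 (SE 0.52) and 1.31 (SE 0.38) on the log2 scale, with every KP(l) array above every nLung array. Itgae, the integrin chain CD103 used in the sort, was at 1172, 1361 and 1349 in KP(l), against 928, 940, 1091 and 1067 in nLung. These 4 genes were chosen after their values were seen, and none was called.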
